A study of Mus musculus with 9 samples.

Results

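The 10 genes described here encode proteins that neutrophils store in granules or keep in the cytosol, and they were taken by symbol from a table of 22054 mouse genes. They fall into 3 stages of neutrophil development. The primary granule genes are Mpo, Elane, Prtn3 and Ctsg, the specific granule genes are Ltf, Camp, Ngp and Lcn2, and S100a8 and S100a9 encode the calgranulins of the cytosol. All 10 passed the filter on low counts in each comparison. RNA was sequenced from the callus of a cut and needle-fixed left femur on day 7 after surgery in wild-type male C57BL/6J mice, given as 7 weeks old in the labels. The study asked how the STING pathway acts in early fracture healing, and 3 libraries were made for each of 3 groups. The H-151 group received the covalent STING inhibitor H-151 (750 nmol in 200 μl) each day by intraperitoneal injection for 1 week, the SR-717 group received the STING activator SR-717 (30 mg/kg in 200 μl), and the PBS group received 200 μl of buffer. Drug and buffer were started on the day after the operation, so every library came from a fractured and injected animal and no unfractured bone was analysed here. The labels call the 3 libraries of a group replicate biosamples without saying whether each came from 1 mouse, so a p-value measures the spread between these samples.

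Neutrophils build their granules in order while they mature in the bone marrow. Promyelocytes make the primary granules, which hold myeloperoxidase and the serine proteases. Myelocytes and metamyelocytes then fill the specific granules with iron-binding and antimicrobial proteins, and the calgranulins accumulate in the cytosol of the later cells. Transcription of the primary granule genes stops well before the cell leaves the marrow, whereas S100a8 and S100a9 transcripts remain abundant in mature neutrophils. The balance between these transcripts in a tissue is therefore often read as the balance between young and mature cells. In bulk tissue, more cells of a type and more RNA per cell cannot be told apart.

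In the mouse genome build GRCm38, 7 of the 10 genes share a chromosome with another member. Prtn3 (chr10:79874476-79883174) and Elane (chr10:79886247-79888215) lay 3.1 kb apart on the plus strand of chromosome 10. S100a8 (chr3:90668978-90670035, plus strand) and S100a9 (chr3:90692632-90695721, minus strand) lay 22.6 kb apart on chromosome 3. Camp (chr9:109847379-109849617, minus strand), Ngp (chr9:110419747-110423012, plus strand) and Ltf (chr9:111019271-111042767, plus strand) followed each other on chromosome 9 with gaps of 570.1 kb and 596.3 kb. Mpo (chr11:87793581-87804413), Ctsg (chr14:56099881-56102574) and Lcn2 (chr2:32384633-32388252) had no other member on their chromosomes.

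The bases before the start sites are shown for the 8 members with a match to either of 2 motifs and some sequence to print. The 250 bases before each RefSeq start (GRCm38.p6) were searched on both strands for GAGGAAG, a core of the sites bound by PU.1, which is needed for the myeloid lineage, and for TTGCNNAA, a core of C/EBP sites, the family that drives granulocyte maturation. Both motifs were chosen with these sequences in view, and no match to one overlapped a match to the other before the members. Capitals mark a match to either motif. Each sequence was cut at its first base inside a GENCODE exon of the same gene, so it can be shorter than 250 bases. Lcn2 has none because its window began inside such an exon. The Ngp match 11 bases before the start and both Lcn2 matches lay in the part not shown. The start RefSeq gives for Prtn3 lies inside the longer gene of GENCODE. Each sequence runs 5′ to 3′ on the strand of its gene.
Mpo (chr11:87793534-87793580, plus strand): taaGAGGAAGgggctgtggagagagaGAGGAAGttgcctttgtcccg
Elane (chr10:79886062-79886246, plus strand): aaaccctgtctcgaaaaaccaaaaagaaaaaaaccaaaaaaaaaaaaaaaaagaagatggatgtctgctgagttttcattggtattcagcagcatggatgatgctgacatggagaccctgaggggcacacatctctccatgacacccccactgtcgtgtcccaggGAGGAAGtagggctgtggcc
Prtn3 (chr10:79879417-79879613, plus strand): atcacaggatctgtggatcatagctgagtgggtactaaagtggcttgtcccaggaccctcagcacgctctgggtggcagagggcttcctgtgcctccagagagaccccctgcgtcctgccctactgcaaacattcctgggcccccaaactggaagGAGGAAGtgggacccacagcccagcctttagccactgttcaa
Ctsg (chr14:56102575-56102824, minus strand): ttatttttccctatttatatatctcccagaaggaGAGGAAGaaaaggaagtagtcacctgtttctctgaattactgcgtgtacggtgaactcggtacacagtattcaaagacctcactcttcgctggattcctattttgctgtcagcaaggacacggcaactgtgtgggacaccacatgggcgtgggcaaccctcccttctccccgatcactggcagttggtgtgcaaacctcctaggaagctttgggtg
Ltf (chr9:111019042-111019270, plus strand): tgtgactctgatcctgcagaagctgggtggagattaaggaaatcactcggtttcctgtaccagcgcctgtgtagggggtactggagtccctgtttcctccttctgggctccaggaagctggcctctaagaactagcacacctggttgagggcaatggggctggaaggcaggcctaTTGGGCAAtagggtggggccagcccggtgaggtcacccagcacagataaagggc
Ngp (chr9:110419558-110419746, plus strand): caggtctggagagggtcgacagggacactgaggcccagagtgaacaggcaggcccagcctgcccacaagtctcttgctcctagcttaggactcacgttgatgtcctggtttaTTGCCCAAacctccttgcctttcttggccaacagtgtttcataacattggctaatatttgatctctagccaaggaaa
S100a8 (chr3:90668821-90668977, plus strand): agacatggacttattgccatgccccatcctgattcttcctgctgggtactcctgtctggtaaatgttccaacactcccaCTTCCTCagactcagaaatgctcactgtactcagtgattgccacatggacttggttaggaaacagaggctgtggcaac
S100a9 (chr3:90695722-90695971, minus strand): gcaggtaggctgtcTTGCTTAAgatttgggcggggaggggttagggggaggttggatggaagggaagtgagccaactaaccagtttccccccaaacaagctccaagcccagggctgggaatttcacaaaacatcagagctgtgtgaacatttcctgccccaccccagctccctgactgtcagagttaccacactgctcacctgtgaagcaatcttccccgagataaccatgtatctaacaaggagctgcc

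The letters GAGGAAG were found before 4 of 4 primary granule genes, against 10.6% of 32851 mouse promoters of the same length. They began 247 and 224 bases before the start of Mpo, 85 before Elane, 95 before Prtn3 and 216 before Ctsg. The later genes with this match were Lcn2 (21 bases before the start) and S100a8 (171 bases, on the opposite strand). The letters TTGCNNAA were found before 0 of 4 primary granule genes and before 3 of 4 specific granule genes, against 9.6% of all promoters. They began 75 bases before the start of Ltf (on the opposite strand), 138 and 11 before Ngp and 216 before Lcn2, and S100a9 had a match at 236 bases. The strand is not given for matches in the part not shown. Camp had neither motif in its window. Because both motifs were chosen with these sequences in view, the counts are not a test against the share of all promoters. A match describes letters and was not tested as a binding site.

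The libraries held 16987388 to 23272479 counts each. On the first principal component of all genes, which held 44% of the variance, SR-717 replicate 1 stood at 105 and PBS replicate 1 at 40.4, while the other 7 libraries lay between -29.9 and -4.12. Both are therefore named wherever a result rests on them. Markers of osteoblasts and osteocytes (summed 22118 to 43934 CPM, counts scaled to the library total), osteoclasts (3532 to 7404 CPM) and skeletal muscle (2923 to 17800 CPM) were present in each of the 9 libraries. The labels give the tissue as bone, although their extraction text speaks of cell lines.

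The primary granule genes were the lowest of the 3 sets and were detected in each of the 9 libraries. Levels are given in TPM, transcripts scaled to the library total and corrected for gene length, which can be compared between genes. Mpo, which encodes the enzyme that makes hypochlorous acid, was at 104, 159 and 24.4 TPM in PBS replicates 1, 2 and 3, at 227, 210 and 51.5 TPM in the H-151 replicates, and at 295, 161 and 93.2 TPM in the SR-717 replicates. Elane, the gene of neutrophil elastase, was at 85.0, 154 and 15.9 TPM with PBS, 205, 194 and 46.3 TPM with H-151, and 268, 121 and 67.5 TPM with SR-717. In both genes replicate 3 was the lowest library of each group, and the 3 groups overlapped. Prtn3, which encodes proteinase 3, ranged from 18.7 TPM in PBS replicate 3 to 333 TPM in SR-717 replicate 1. Ctsg, the gene of cathepsin G, was the lowest member in each of the 9 libraries, between 7.19 and 177 TPM.

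The specific granule genes were several times higher in TPM than the primary set in every library. Camp, the precursor of the antimicrobial cathelicidin peptide, was at 450, 684 and 110 TPM in PBS replicates 1, 2 and 3, at 903, 903 and 283 TPM in the H-151 replicates, and at 1443, 716 and 551 TPM in the SR-717 replicates. Ngp, which encodes neutrophilic granule protein, was the highest of the 4, from 194 TPM in PBS replicate 3 to 4039 TPM in SR-717 replicate 1. Ltf, the iron-binding lactoferrin, ranged between the same libraries from 103 to 1929 TPM. Lcn2, whose product lipocalin-2 binds bacterial siderophores and which other cells also make in inflammation, followed another order. It was at 884, 375 and 59.1 TPM with PBS, 654, 561 and 114 TPM with H-151, and 2939, 375 and 251 TPM with SR-717. Lcn2 was thus highest in SR-717 replicate 1 and PBS replicate 1, the libraries at the end of the first principal component.

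S100a9 and S100a8, whose products pair as calprotectin to bind calcium and zinc, were the most abundant members, and by mean TPM they ranked 22nd and 49th of all 22054 genes. S100a8 was at 2554, 1420 and 367 TPM in PBS replicates 1, 2 and 3, at 2571, 2470 and 677 TPM in the H-151 replicates, and at 8607, 2532 and 1488 TPM in the SR-717 replicates. S100a9 was at 4469, 2662 and 638 TPM with PBS, 4796, 3999 and 1235 TPM with H-151, and 17042, 3508 and 2806 TPM with SR-717. SR-717 replicate 1 exceeded the next library 3.35-fold for S100a8 and 3.55-fold for S100a9, against 1.3-fold for Mpo and 1.31-fold for Elane.

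**Figure D1:**
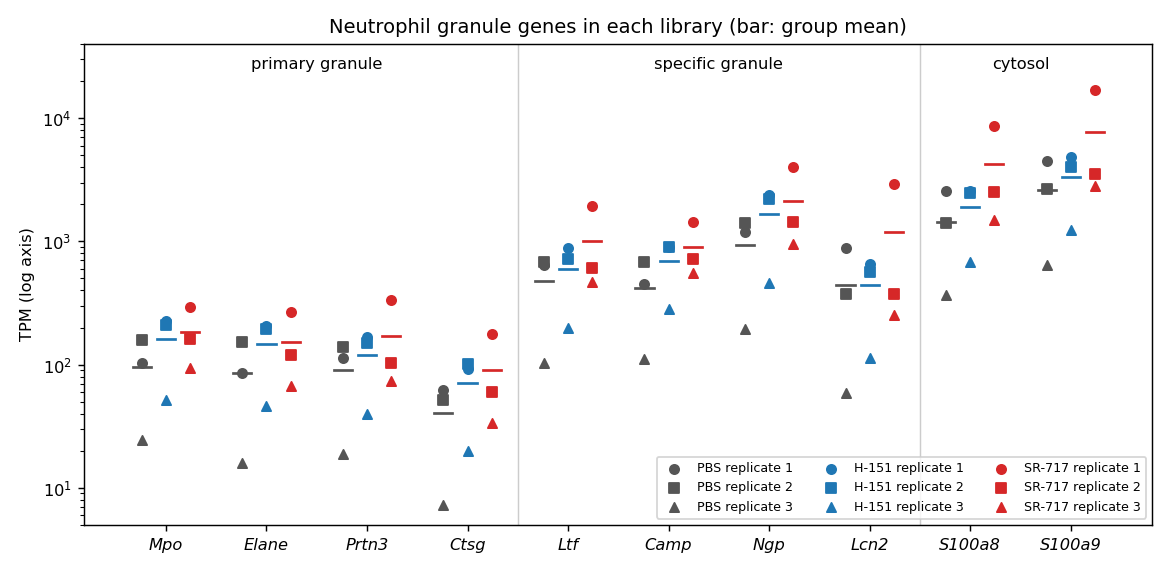
Level of each of the 10 genes in each of the 9 libraries, in TPM on a log axis, with colour for the group, symbol for the replicate and a bar for the group mean. PBS replicate 3 is the lowest library and SR-717 replicate 1 the highest for every gene, and the groups overlap.

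For all 10 genes the lowest library was PBS replicate 3, the second lowest was H-151 replicate 3 and the highest was SR-717 replicate 1. The highest library exceeded the lowest by 12.1-fold for Mpo and by 49.7-fold for Lcn2, with the other 8 in between. The SD of log2 CPM over the 9 libraries was 1.08 to 1.64 for the members, against a median of 0.31 over 14294 genes. The members' summed share of TPM was 0.15% in PBS replicate 3 and 3.71% in SR-717 replicate 1. By mean TPM the order was S100a9, S100a8, Ngp, Ltf, Lcn2, Camp, Mpo, Elane, Prtn3 and Ctsg. S100a9 exceeded S100a8, S100a8 exceeded Ngp, and Ngp exceeded Ltf in 9 of 9 libraries, as did Camp over Mpo, Mpo over Elane and Prtn3 over Ctsg. Ltf exceeded Lcn2 in 7 of 9 libraries, Lcn2 exceeded Camp in 2 of 9 and Elane exceeded Prtn3 in 5 of 9, so these neighbours had no fixed order.

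The balance between the stages moved far less than the levels. The ratio of the geometric mean TPM of the 6 later genes to that of the 4 primary genes was 13.8, 8.6 and 11.6 in PBS replicates 1, 2 and 3, 9.6, 9.0 and 9.9 in the H-151 replicates, and 15.7, 10.8 and 12.7 in the SR-717 replicates. The 3 H-151 libraries lay close together and the SR-717 libraries above them by a narrow margin, 10.8 against 9.9. The PBS libraries overlapped both. This ratio is a score of chosen genes and was not tested. Among single genes, 2.67% of all those tested separated these 2 groups with SR-717 higher, and no member did. The ratio of specific to primary granule genes stayed between 6.0 and 9.2 in the 9 libraries. The calgranulins moved more, from 16.9 times the primary genes in PBS replicate 2 to 46.4 times in SR-717 replicate 1. PBS replicate 1 was next to the latter, at 37.9. The cell types that held the calgranulin transcripts were not determined. Of the members' summed TPM, the primary genes held 2.89% in SR-717 replicate 1 and 6.49% in PBS replicate 2.

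**Figure D2:**
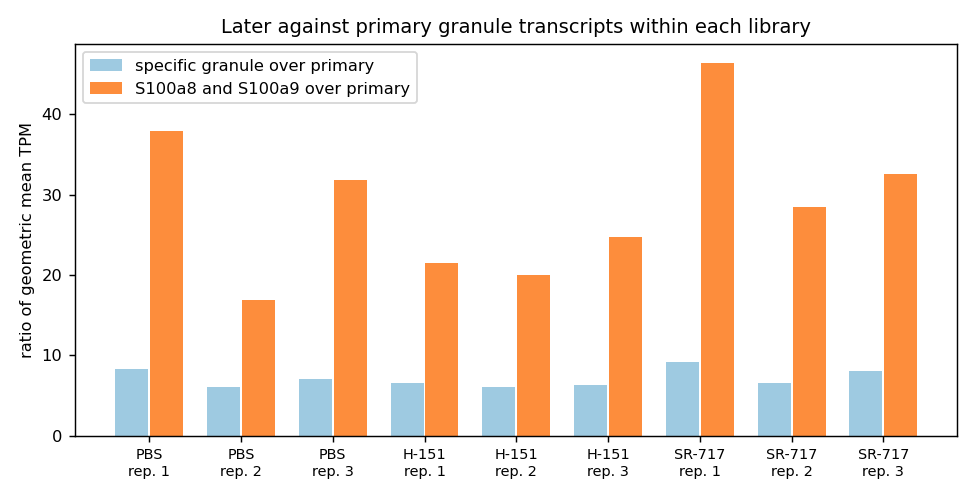
Ratio of the geometric mean TPM of the 4 specific granule genes (blue) and of S100a8 and S100a9 (orange) to that of the 4 primary granule genes, in each of the 9 libraries. The blue bars lie between 6.0 and 9.2, while the orange bars run from 16.9 to 46.4 and are highest in SR-717 replicate 1 and PBS replicate 1.

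Ratios between single genes showed which members kept together. Camp stayed at 3.98 to 5.91 times Mpo in the 9 libraries, although one belongs to the specific and the other to the primary granule. Mpo stayed at 1.03 to 1.54 times Elane, and S100a9 at 1.39 to 1.98 times S100a8. Lcn2 departed from its own granule. It was 1.97 times Camp in PBS replicate 1 and 2.04 times Camp in SR-717 replicate 1, against 0.40 to 0.72 times in the other 7 libraries. Ltf showed a smaller shift, at 6.16 and 6.54 times Mpo in the same 2 libraries against 3.44 to 5.07 times elsewhere. The shift was also seen within the primary granule. Ctsg was 0.74 and 0.66 times Elane in these libraries against 0.34 to 0.52 times elsewhere. Prtn3 was 1.34 and 1.24 times Elane there, against 0.78 to 1.18 times. S100a9 was 43.1 and 57.8 times Mpo, against 16.8 to 30.1 times. Pearson correlations of log2 CPM were taken over the 9 libraries, which share depth and tissue makeup. They were 0.97 to 0.99 within the primary set, 0.87 to 0.99 within the later genes and 0.87 to 1.0 between primary and later genes.

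SR-717 against PBS compared the STING activator with the buffer control. All 10 genes had a log2 fold change above 0, against 52.2% of the 14070 genes tested, and none passed the test of edgeR, a count model fitted across all genes. The log2 fold change was 1.14 (SE 0.74) for Mpo, 1.29 (SE 0.68) for Camp, 1.62 (SE 1.24) for Lcn2 and 1.76 (SE 0.95) for S100a9, each with an edgeR adjusted p of 1. The median log2 fold change was 1.11 over the primary genes and 1.53 over the later genes, against 0.01 over all genes tested. Of all tested genes, 0% passed an adjusted p of 0.05, 0.689% an unadjusted p of 0.05 and 0.519% the latter with a 1.5-fold change, and 0 members passed any of these. For 1.49% of genes the 3 SR-717 libraries lay above the 3 PBS libraries without overlap, and no member was among them. DESeq2 gave 0 members past an adjusted p and 2, S100a8 and S100a9, past an unadjusted p of 0.05 with a 1.5-fold change, against 138 of 14070 genes in either direction.

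Libraries with the same replicate number deviated together in this comparison, so the number was also fitted as a block. The labels do not say that a number marks a pair. The pairing was read from these same data, and the blocked p-values here and below rest on it. With it, 8 of 10 members were past an unadjusted p of 0.05 and a 1.5-fold change, against 2.43% of all genes in that direction, and still none passed an adjusted p, each being 0.999 in edgeR. The blocked log2 fold change was 1.64 (SE 0.27) for S100a8, 1.47 (SE 0.44) for Camp and 1.32 (SE 0.41) for Mpo, and the members outside were Elane at 1.24 (SE 0.50) and Prtn3 at 1.15 (SE 0.49). Within pairs, S100a8 was 3.86-, 2.01- and 3.87-fold higher with SR-717 in replicates 1, 2 and 3. Mpo was 3.52-, 1.12- and 3.88-fold of its PBS partner, and Elane 3.60-, 0.89- and 4.05-fold. The second pair was thus near equal for these primary genes. Of the 10 members, 8 were higher in all 3 pairs, against 11% of all genes. The members varied together (Pearson r 0.87 to 1.0), so counts of members are not counts of independent observations. Leaving out pair 1, 2 or 3 left 2, 10 or 3 members past these thresholds, against 0.953%, 4.86% and 7.92% of all genes in either direction in the same fits. Without SR-717 replicate 1 and with no block, the median log2 fold change was 0.28 over the primary and 0.41 over the later genes, and without PBS replicate 1 it was 1.24 and 2.08.

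H-151 against PBS compared the STING inhibitor with the same 3 control libraries. Of the 10 genes, 9 had a log2 fold change above 0 in edgeR, against 44.2% of 14085 genes tested, and none passed the test. The log2 fold change was 0.83 (SE 0.73) for Mpo, 0.81 (SE 0.77) for Elane, 0.76 (SE 0.64) for Camp and 0.39 (SE 0.69) for S100a8, each with an edgeR adjusted p of 1. Lcn2 stood at -0.0059 (SE 0.91). The median was 0.81 over the primary genes and 0.48 over the later genes, against -0.02 over all genes. The share of all genes past an adjusted p of 0.05 was 0%, 0.646% were past an unadjusted one and 0.426% past that and 1.5-fold, with 0 members in any of these and 0 by DESeq2. The H-151 libraries lay above the PBS libraries without overlap for 1.56% of genes and for 0 members.

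With the replicate number as a block, 7 of 10 members were past an unadjusted p of 0.05 and a 1.5-fold change, against 1.43% of all genes in that direction, with an edgeR adjusted p of 1 for each. These were the 4 primary granule genes with Ltf, Camp and Ngp, with blocked log2 fold changes of 0.59 (SE 0.20) for Prtn3 to 1.05 (SE 0.24) for Elane. S100a8 at 0.59 (SE 0.24), S100a9 at 0.57 (SE 0.23) and Lcn2 at 0.38 (SE 0.31) lay outside. Within pairs, Mpo was 2.28-, 1.37- and 2.36-fold of PBS in replicates 1, 2 and 3, and Lcn2 was 0.69-, 1.57- and 2.06-fold. The 3 members outside were those not higher in the first pair, which holds PBS replicate 1. All the other 7 were higher in all 3 pairs, against 10.1% of all genes. Leaving out pair 1, 2 or 3 left 9, 7 or 5 members past the thresholds, against 1.89%, 3.82% and 2.33% of all genes in either direction. Without PBS replicate 3 and with no block, 6 of 10 members had a log2 fold change above 0, with a median of 0.32 over the primary and 0.02 over the later genes. Without PBS replicate 1 the medians were 0.85 and 1.04.

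SR-717 against H-151 set the activator beside the inhibitor, the comparison for which the study gave its thresholds. All 10 log2 fold changes were above 0, against 53.4% of all genes, and none passed the test. Lcn2, S100a9, S100a8 and Ltf had larger values than the 4 primary genes, whereas Camp at 0.52 (SE 0.53) and Ngp at 0.51 (SE 0.75) lay among them. The log2 fold change was 0.30 (SE 0.64) for Mpo, 0.20 (SE 0.68) for Elane, 1.61 (SE 1.09) for Lcn2, 1.31 (SE 0.78) for S100a8 and 1.39 (SE 0.84) for S100a9, each with an edgeR adjusted p of 0.996. The median was 0.41 over the primary and 1.08 over the later genes, against 0.02 over 14151 genes. Of all genes 0% passed an adjusted p of 0.05, 1.03% an unadjusted one and 0.756% the latter with a 1.5-fold change in edgeR, and 0 members passed any of these, nor the same thresholds in DESeq2. With the block 0 members passed the last of these, against 0.622% of genes with SR-717 higher. The groups separated with SR-717 higher for 2.67% of genes and for 0 members. Within same-numbered pairs, S100a8 was 4.12-, 1.1- and 1.95-fold higher with SR-717 and was the only member higher in all 3, as were 11.2% of genes, while Elane was at 1.61-, 0.67- and 1.3-fold. The values rested on SR-717 replicate 1. Without it 2 of 10 members had a log2 fold change above 0, and the medians were -0.42 over the primary and -0.17 over the later genes.

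**Figure D3:**
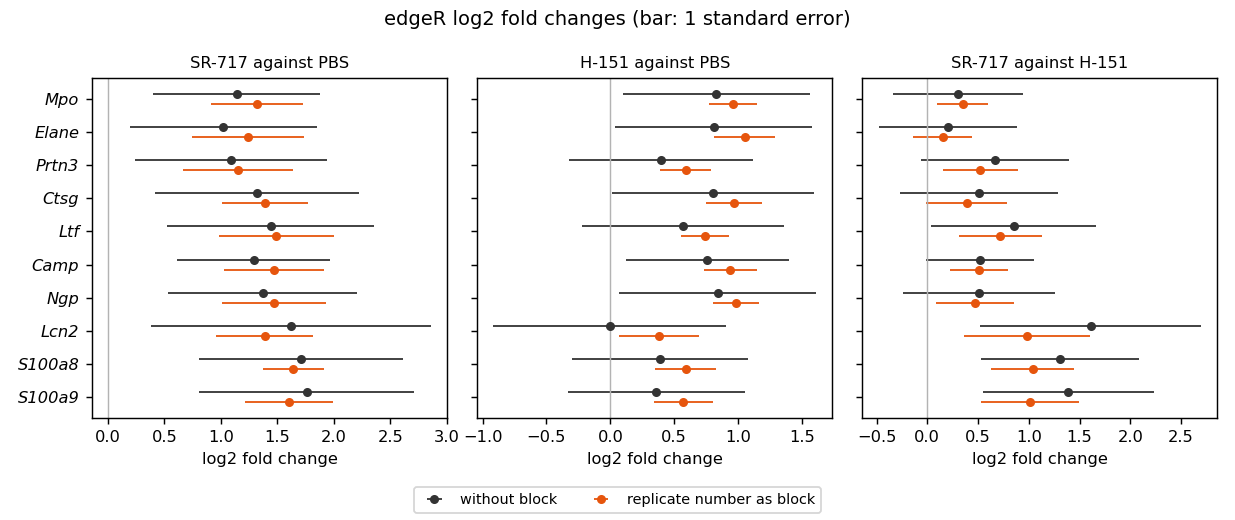
edgeR log2 fold changes of the 10 genes in the 3 comparisons, without (black) and with (orange) the replicate number as a block, with a bar of 1 SE to each side. The points lie above 0 except Lcn2 without the block in H-151 against PBS (-0.0059), and the orange bars are shorter.

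The stages were also compared by their mean log2 fold changes. The mean log2 fold change of the primary genes minus that of the later genes was -0.61 in SR-717 against H-151, -0.39 in SR-717 against PBS and 0.22 in H-151 against PBS. These are descriptions of chosen genes and carry no test. Leaving out 1 library at a time gave -0.71 to -0.27, -0.71 to -0.037 and -0.099 to 0.52 in the same order. The first 2 kept their sign, and the value of -0.037 came from leaving out SR-717 replicate 1. The third changed sign without PBS replicate 1.

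Other genes of the same granules and of mature neutrophils were read from lists. Of the 6 companions of the primary granule, Prss57, a serine protease, Ms4a3 and Fcnb, ficolin-B, followed the members. Fcnb was at 3.76 TPM in PBS replicate 3 and 85.8 TPM in SR-717 replicate 1. Ctsc was highest in SR-717 replicate 1, 3.04-fold over PBS replicate 1, the next library, and lowest in PBS replicate 2. Srgn, the proteoglycan core on which granule proteins are packed and which many blood cells make, was at 2690 TPM in SR-717 replicate 1 and 384 TPM in PBS replicate 1, and at 79.4 to 206 TPM in the other 7 libraries. Cd63, a membrane protein of lysosomes in many cells, was at 1003 to 1596 TPM and was lowest in SR-717 replicate 1. The companions of the specific granule were highest in SR-717 replicate 1 for 9 of 9 genes. Mmp8, neutrophil collagenase, was at 5.49 TPM in PBS replicate 3 and 178 TPM in SR-717 replicate 1, and its log2 fold change in SR-717 against PBS was 2.39 (SE 1.07), with an edgeR adjusted p of 1.

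Mature neutrophil genes were concentrated in 1 library. SR-717 replicate 1 was the highest and PBS replicate 3 the lowest for 11 of 11, and the former exceeded the next library by 1.9- to 4.16-fold. The same excess was 1.3- to 2.0-fold for the primary granule genes and 1.6- to 3.32-fold for the specific granule genes. Cxcr2, the chemokine receptor of mature neutrophils, was at 21.1, 5.27 and 1.01 TPM in PBS replicates 1, 2 and 3, 12.9, 7.34 and 1.91 TPM in the H-151 replicates, and 81.4, 4.67 and 2.86 TPM in the SR-717 replicates. Ly6g, the surface marker of mouse granulocytes, kept nearer to the granule genes, at 29.7, 31.7 and 4.79 TPM with PBS, 48.9, 46.3 and 11.4 TPM with H-151, and 92.7, 35.4 and 24.2 TPM with SR-717. In SR-717 against PBS the median log2 fold change of the 11 genes was 1.85, and in H-151 against PBS it was 0.18. No gene of these lists or of the gelatinase granule list passed an unadjusted p of 0.05 without the block in any comparison. With the block in SR-717 against PBS, 9 of 11 mature neutrophil genes, 5 of 9 specific companions, 3 of 6 primary companions and 3 of 7 gelatinase granule genes were higher past an unadjusted p of 0.05 with a 1.5-fold change, against 2.43% of all genes. In H-151 against PBS the counts were 4, 3, 3 and 0, against 1.43% of all genes, and in SR-717 against H-151 they were 1, 0, 0 and 1, against 0.622%.

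**Figure D4:**
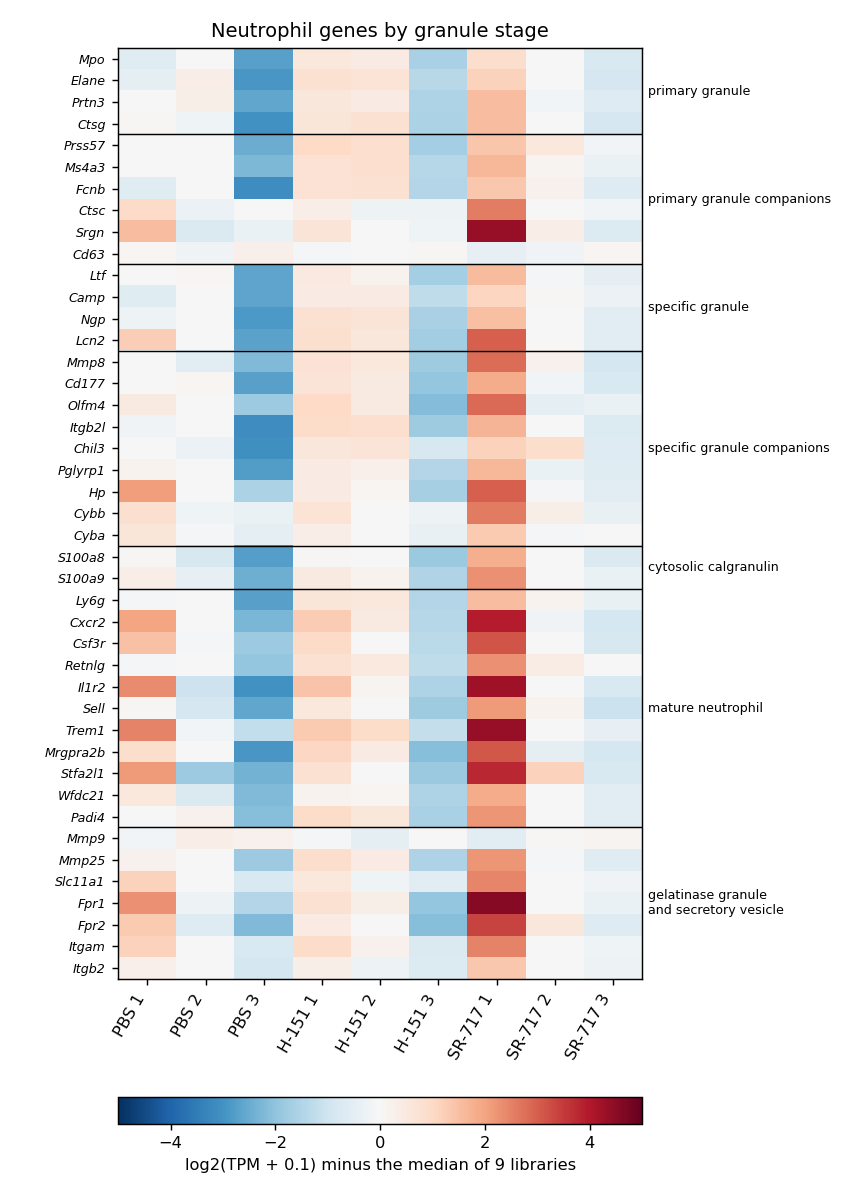
Level of the member genes and 4 lists of other neutrophil genes in the 9 libraries, as log2(TPM + 0.1) minus the gene's median over the libraries, with red above and blue below it and lines between the lists. SR-717 replicate 1 is red for most genes and PBS replicate 3 blue, Lcn2, Hp and Cxcr2 are also red in PBS replicate 1, and Cd63 and Mmp9 are lowest in SR-717 replicate 1, at 0.63 and 0.55 of their highest library.

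The transcription factors of granulocyte formation did not share 1 pattern. Cebpe, which is needed for specific granules, was at 13.4, 20.0 and 2.50 TPM with PBS, 22.5, 22.3 and 4.32 TPM with H-151, and 32.0, 13.0 and 8.88 TPM with SR-717. Cebpb, the factor of emergency granulopoiesis and of many other cells, was at 205, 67.9 and 31.7 TPM with PBS, 75.9, 65.2 and 40.3 TPM with H-151, and 356, 52.3 and 57.5 TPM with SR-717. Cebpe thus followed the primary genes, and Cebpb was high in SR-717 replicate 1 and PBS replicate 1 as Lcn2 was. Cebpa, at 27.4 to 40.5 TPM, and Runx1, at 22.4 to 38.1 TPM, were highest in H-151 replicate 1 and followed neither pattern. SR-717 replicate 1 was the highest library for the other 6 of 8 factors. None of the 8 factors passed an unadjusted p of 0.05 without the block. Among inhibitors of the granule proteases, Slpi was at 866 TPM in SR-717 replicate 1 and 376 TPM in PBS replicate 1, and at 38.8 to 136 TPM in the other 7. Among receptors of the released proteins, Ager, which binds S100 proteins, had a log2 fold change of -1.18 (SE 0.41) in H-151 against PBS at 7 to 32 counts a library. It was past an unadjusted p of 0.05 there, and its edgeR adjusted p was 1.

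The signals that make and recruit neutrophils were high in the same 2 libraries. SR-717 replicate 1 was the highest for 8 of 8 such genes and PBS replicate 1 the second for 7. Il1b, the gene of interleukin-1β, was at 271, 12.4 and 5.46 TPM with PBS, 75.5, 25.7 and 7.49 TPM with H-151, and 1660, 30.1 and 17.7 TPM with SR-717. Csf3, which encodes the growth factor G-CSF, was at 25.7 TPM in SR-717 replicate 1 and 15.0 TPM in PBS replicate 1 and at most 0.499 TPM in the other 7, with 0 counts in PBS replicate 3 and H-151 replicate 3. Of these genes Cxcl3, a chemokine for neutrophils, was past an unadjusted p of 0.05 in SR-717 against H-151 (log2 fold change 4.14, SE 1.68, edgeR adjusted p = 0.996). It was at 224 TPM in SR-717 replicate 1 and 5.14 and 5.15 TPM in the other SR-717 libraries, against 2.67 to 9.12 TPM with H-151, so these groups overlapped.

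Over the 9 libraries, the genes outside the members whose log2 CPM correlated best with each set were listed among 13499 genes. For the primary set they were Itgb2l (r = 0.997), Ly6g, Fcnb, 4930438A08Rik and Cebpe (0.988). For the specific set they were Ly6g (r = 0.996), 4930438A08Rik, Cd177, Mapk13 and Pglyrp1 (0.993). For the calgranulins they were Ceacam10 (r = 0.996), Tnfrsf13b, Tbc1d8, Wfdc21 and Ifitm6 (0.991). Without SR-717 replicate 1 the r of these genes was 0.982 to 0.997. The libraries share their tissue makeup, so the values describe likeness over these samples.

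Markers of other cell types moved across the libraries too. The mean log2 CPM of erythroid markers was 3.11, 7.87 and 3.83 in PBS replicates 1, 2 and 3, 7.54, 8.30 and 6.23 in the H-151 replicates, and 3.90, 7.68 and 6.06 in the SR-717 replicates. Pre-B markers, which belong to marrow, had the same 3 lowest libraries, at -0.48 in PBS replicate 1, 0.53 in PBS replicate 3 and 0.41 in SR-717 replicate 1 against 1.66 to 3.13 in the other 6. PBS replicate 3, the lowest for every member, was thus low in both marrow lists, whereas SR-717 replicate 1, the highest for every member, was also low in them. Over the 9 libraries the Pearson r of the primary set was 0.30 with erythroid, 0.28 with pre-B and 0.60 with megakaryocyte and platelet markers. Without SR-717 replicate 1 these were 0.67, 0.61 and 0.82. For the calgranulins they were -0.03, -0.03 and 0.31, and without that library 0.41, 0.36 and 0.62. Chondrocyte markers were at 2.98 in SR-717 replicate 1 and 5.45 in PBS replicate 1 against 6.62 to 8.58 in the other 7, and skeletal muscle markers were at 9.34 in PBS replicate 3 against 10.64 to 11.94. Monocyte and macrophage markers were highest in SR-717 replicate 1 for 7 of 7 genes, at summed levels of 803 to 1267 CPM with PBS, 875 to 1104 CPM with H-151 and 1040 to 2162 CPM with SR-717. Their Pearson r was 0.79 with the primary set, 0.86 with the specific set and 0.93 with the calgranulins. Without SR-717 replicate 1 it was 0.75, 0.80 and 0.88. Osteoclast and osteoblast markers ran against the members. The mean log2 CPM of osteoclast markers was 6.93, 7.10 and 7.36 with PBS, 6.56, 6.58 and 7.64 with H-151, and 6.26, 7.15 and 7.22 with SR-717, and SR-717 replicate 1 was the lowest library for each of the 5 genes. Over the 9 libraries the Pearson r of this list with the 3 member sets was -0.85 to -0.83, and that of osteoblast and osteocyte markers was -0.89 to -0.82. Without SR-717 replicate 1 these were -0.76 to -0.72 and -0.79 to -0.74. Mast cell, eosinophil and basophil markers were low, at summed levels of at most 38.8 and 26.5 CPM, and keratinocyte markers were at 11.4 to 24.2 CPM, with Krt15 at 0 in the 3 PBS libraries. No other marker was at 0 in a whole group. The part of these differences in the levels of the granule genes was not tested.

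**Figure D5:**
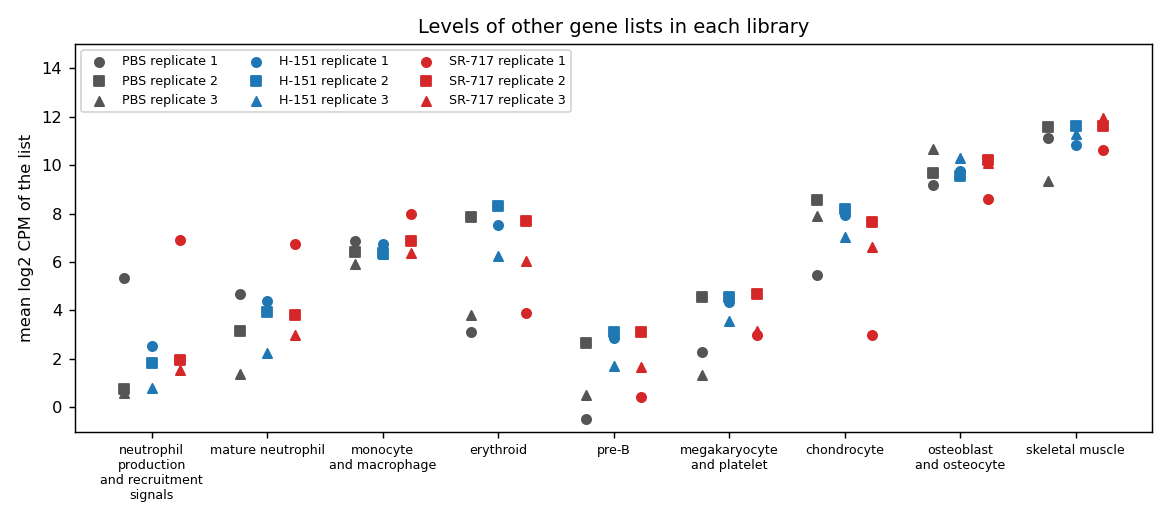
Mean log2 CPM of 9 gene lists in each library, with colour for the group and symbol for the replicate. SR-717 replicate 1 (red circle) is highest for the neutrophil and monocyte lists and lowest for the chondrocyte and osteoblast lists, and PBS replicate 1 and 3 are low for erythroid, pre-B and megakaryocyte genes.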

How the data were processed

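Total RNA from callus was poly(A)-selected, made into strand-specific paired-end libraries and sequenced by a service company. Per the labels and the study's methods, the authors deposited 1 table with expected counts and TPM for each gene and library, and the submitters' processing notes name the build mm10. The aligner and counting program are not given in the sources used here. The authors' expected counts were not normalized, and 8.91% of them were not whole, none of them a member's; they were rounded to whole numbers. The deposited TPM values are the authors' own and correct for gene length and library total. Annotation columns of the table were not used.

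Each pair of groups was compared with edgeR 4.0.16 in R 4.3.3 (quasi-likelihood test, TMM factors, filterByExpr with a minimum count of 10) on all genes, with Benjamini-Hochberg adjustment over all genes tested, a threshold of 0.05 and, as an unadjusted reading, the study's thresholds of 0.05 and 1.5-fold. The SE is the log2 fold change divided by the square root of F. DESeq2 1.42.0 was an alternative, as were DESeq2 size factors, no filter, a floor of 50 on a gene's mean count, a single fit of all 9 libraries, leaving out each library and the replicate number as a block. The block without 1 replicate number was added after seeing the data. Stage ratios used geometric means of TPM + 0.1, and list levels a prior count of 0.5. Totals per library were 16987388 to 23272479 counts.

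The labels number the replicates of each group without saying what a number marks. The deviations from the group means of same-numbered libraries correlated at 0.62, 0.32 and 0.14 for SR-717 against PBS. For H-151 against PBS they correlated at 0.28, 0.45 and 0.48, so the numbers were taken to pair the libraries of both comparisons. They correlated at 0.31, 0.05 and 0.07 for SR-717 against H-151, which was not taken as paired. A number that paired both drug groups with PBS would also pair them with each other, so these readings conflict. The pair at 0.62 holds SR-717 replicate 1 and PBS replicate 1, which stood apart on the first principal component. No correlation was computed for differently numbered libraries, so it is not known whether same-numbered ones were more alike. The pairing was read from the same data, so the blocked p-values rest on a pairing that the labels do not give. On simulated counts, edgeR recovered 72% of 200 genes with a 4-fold change in SR-717 against H-151 (14151 genes). It recovered 49.5% in SR-717 against PBS (14070 genes) and 89% in H-151 against PBS (14085 genes). With a 2-fold change it recovered 7%, 4% and 21% of 200 genes in the same order. The changed genes were drawn from all those tested, and the members varied more than most genes. These shares therefore do not give the recovery of the members.

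The members, gene lists and motifs were chosen with earlier results of these data known. The text names the 10 members, genes of the fixed neutrophil and cell type lists and, for each member set, the 5 genes with the highest Pearson r to its mean log2 CPM among genes with a mean of at least 1 CPM. Gene positions came from GENCODE M21 and promoter windows from RefSeq, where all 10 members matched by symbol.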

Additional observations from a re-analysis of the deposited data

How the results depend on the processing

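No member passed an adjusted p of 0.05 in any comparison under any alternative run, DESeq2 and the block included. The mean log2 fold change of the primary genes minus that of the later genes ran from -0.71 to -0.27 in SR-717 against H-151 over the fits that left out 1 library, with -0.27 without SR-717 replicate 1. It ran from -0.71 to -0.037 in SR-717 against PBS, with -0.037 without the same library. In H-151 against PBS it ran from -0.099 without PBS replicate 1 to 0.52 without PBS replicate 2. Without SR-717 replicate 1 the log2 fold change in SR-717 against H-151 changed sign for 8 genes, to -0.30 for Mpo, -0.56 for Elane, -0.34 for Prtn3, -0.51 for Ctsg, -0.27 for Ltf, -0.057 for Camp, -0.40 for Ngp and -0.40 for Lcn2. The highest values of these genes over the same fits, in this order, were 0.65, 0.57, 1.05, 0.92, 1.25, 0.80, 0.89 and 2.10, each without SR-717 replicate 3. Without H-151 replicate 3 it was -0.11 for Mpo and -0.20 for Elane. In SR-717 against PBS, Lcn2 was at -0.41 without SR-717 replicate 1 and at most 2.66, without PBS replicate 1. In H-151 against PBS, leaving out PBS replicate 3 gave -0.068 for Prtn3, -0.056 for S100a8 and -0.09 for S100a9, with highest values of 0.82 for Prtn3 without PBS replicate 2 and of 1.11 for S100a8 and 1.03 for S100a9 without PBS replicate 1. Lcn2 there, at -0.0059 with all libraries, was at 1.04 without PBS replicate 1, -0.52 without PBS replicate 3, 0.43 without H-151 replicate 3 and 0.00033 with a mean count of at least 50. With 1 library left out, that arm held 2 libraries. The cause of these moves was not tested.

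With replicate number entered as the block, the primary minus later difference was -0.44 in SR-717 against H-151, -0.23 in SR-717 against PBS and 0.19 in H-151 against PBS, and Lcn2 in H-151 against PBS was at 0.38. Leaving out replicate 1 in the block gave -0.3 for SR-717 against H-151. The block raised the genes past the study's thresholds from 73 to 443 in SR-717 against PBS and from 60 to 262 in H-151 against PBS, with 143 against 107 in SR-717 against H-151, where it put 0 members past them. In that comparison, leaving out pair 1, 2 or 3 gave 0, 8 and 0 members, against 0.728%, 1.74% and 5.29% of all genes. Other settings also moved these gene counts. Without a filter they were 223, 194 and 127 in SR-717 against H-151, SR-717 against PBS and H-151 against PBS, in the fit of all 9 libraries 171, 176 and 66, with a mean count of at least 50 they were 61, 37 and 28, and with DESeq2 209, 138 and 83. The simulation did not set its changes at the members' own spread.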
